A study of Mus musculus with 6 samples.

Results

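In type 1 conventional dendritic cells (cDC1), 33 less known genes had array intensities at least 2-fold higher after anti-CD40 stimulation than without it. They encode metabolic enzymes, transporters, transcription factors, signalling proteins and surface receptors, and 1 encodes a microRNA. These were selected on this very contrast: a difference of at least 1 between the group means of log2 intensity, with all 3 stimulated arrays above all 3 unstimulated arrays. That rule was met by 55 of 12780 genes, or 0.430%, and 22 well-known genes such as Tnfsf9, Cd70 and Cd86 were then set aside by name. Because the values chose the members, their differences are a description and carry no test. In a fit over all 12780 genes with limma, 2 genes were higher at an adjusted p under 0.05 (0.0156%), and neither is among the 33. That count was 0 without any 1 of the 6 arrays and 28 with array weights, 9 of them members. Of the 33, 0 passed that threshold and 31 had an unadjusted limma p under 0.05, against 265 higher among all 12780 genes. Nothing is read from this, since the same contrast chose the members.

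All samples were migratory cDC1 from lymph nodes that drain the skin of wild-type C57BL/6 mice, sorted for CD40 and XCR1, high MHC II and intermediate CD11c, and against B220, CD326 and Sirpa. One group of 3 arrays is labelled unstimulated and the other group of 3 is labelled anti-CD40 stimulated. The labels give neither the age and number of the mice nor the route, dose and duration of the antibody. Each sample is called a biological replicate, and nothing says which mice or cell pools it came from, so the spread between arrays may be partly technical.

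CD40 is a receptor of the TNF receptor family that antigen-presenting cells carry and that helper T cells engage with CD40 ligand. It recruits TRAF adaptors and activates NF-kB and MAP kinases, and in dendritic cells this is known to raise costimulatory ligands, survival proteins and cytokines. An agonistic antibody stands in for the T cell. The genes below lie outside that textbook set, and several are better known from liver, nerve or vessel wall than from dendritic cells.

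Values are log2 of the deposited intensities, so a difference of 1 is a doubling of intensity. Background that remains in an intensity makes a fold understate the change in RNA of a dim gene. The median intensity per array lay between 51.9 and 56.3. Batf3, a transcription factor of cDC1, averaged 9.35 without and 9.76 with stimulation, and Ccr7, the homing receptor of migratory dendritic cells, averaged 12.51 and 12.66. Of 10 migratory dendritic cell markers 8 were measured, and all 8 had positive differences, with a median of 0.30. They ran from 0.15 for Ccr7 to 0.83 for Fscn1, whose groups overlapped. Xcr1 itself was dim, at 4.44 without and 4.67 with stimulation. Of 11 cDC1 markers 10 were measured, and 6 had positive and 4 negative differences, the lowest being that of Clec9a, a receptor for dead cells (-0.26). In sorted bulk RNA, more cells of a kind and more RNA per cell cannot be told apart.

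The promoter windows of members that hold a match to a motif of NF-kB or AP-1, the factors that CD40 is known to activate, are shown first. They come from RefSeq (GRCm38.p6), each covers 250 bases before to 50 after a start, and 26 of the 33 genes had 39 such windows. An NF-kB motif was found in 3 of the 39 windows (7.69%, against 4.51% of all 32851 windows), those of Gng4, Jup and Slc6a12. The AP-1 motif TGANTCA was found in 4 (10.3%, against 7.81%), those of Ampd3, Hcls1, Procr and Slc6a12. Both strands were searched, and the match is in capitals with up to 35 bases on each side, 5′ to 3′ along the gene.
Gng4, NF-kB, chr13:13784252-13784331, plus strand: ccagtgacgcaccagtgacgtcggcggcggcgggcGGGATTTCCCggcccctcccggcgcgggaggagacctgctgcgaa
Jup, NF-kB, chr11:100397803-100397882, minus strand: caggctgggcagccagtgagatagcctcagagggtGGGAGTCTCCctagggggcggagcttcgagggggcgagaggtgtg
Slc6a12, NF-kB, chr6:121342406-121342485, plus strand: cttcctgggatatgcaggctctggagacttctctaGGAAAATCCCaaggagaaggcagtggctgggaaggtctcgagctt
Slc6a12, AP-1, chr6:121342481-121342557, plus strand: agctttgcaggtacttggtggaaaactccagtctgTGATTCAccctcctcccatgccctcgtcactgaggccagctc
Procr, AP-1, chr2:155751028-155751104, plus strand: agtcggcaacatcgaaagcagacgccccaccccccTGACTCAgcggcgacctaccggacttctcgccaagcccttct
Hcls1, AP-1, chr16:36934876-36934952, plus strand: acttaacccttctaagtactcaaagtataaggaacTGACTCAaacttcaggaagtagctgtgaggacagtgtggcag
Ampd3, AP-1, chr7:110772581-110772653, plus strand: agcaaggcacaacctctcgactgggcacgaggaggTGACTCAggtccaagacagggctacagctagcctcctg
In Gng4 the NF-kB match begins 20 bases before the start and in Jup 57, where a second match overlaps it on shifted letters. Slc6a12 is the 1 gene with both motifs. Its AP-1 match begins 58 bases before the start and its NF-kB match 133 before. The AP-1 match of Ampd3 begins 12 bases after the start. These are matches of letters in these windows, and binding was not measured.

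A further set of motifs was searched in the same windows. The GC box GGGCGG, common in promoters rich in CpG, was in 19 of 39 windows (48.7%, against 35.7% of all), the E-box CACGTG in 4 (10.3%, against 7.15%) and the TEAD motif GGAATG in 3 (7.69%, against 14.7%). The CRE TGACGTCA, the core of the interferon response element (ISRE) and the GLI motif TGGGTGGTC were in 0 of the 39, against 1.79%, 3.44% and 0.253% of all windows.

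The microRNA gene is Mir677. RefSeq gives its hairpin at chr10:128085286-128085363 on the plus strand and its mature forms as follows, with the seed (bases 2 to 8) in capitals because it is the part that pairs with targets.
mmu-miR-677-5p: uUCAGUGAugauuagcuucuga
mmu-miR-677-3p: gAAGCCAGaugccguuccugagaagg
The annotation assigns 1 probe set to Mir677, and which part of the transcript it reads is not given in the tables used here. That probe set gave 5.82, 5.27 and 4.69 without stimulation (replicates 1, 2 and 3) and 6.0, 6.81 and 6.54 with it, a difference of 1.19. The groups were close, with the lowest stimulated array 0.19 above the highest unstimulated one. Mir677 lies within Atp5b, which encodes the beta subunit of ATP synthase, and Atp5b differed by 0.06 between the groups (9.68 and 9.74).

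**Figure D1:**
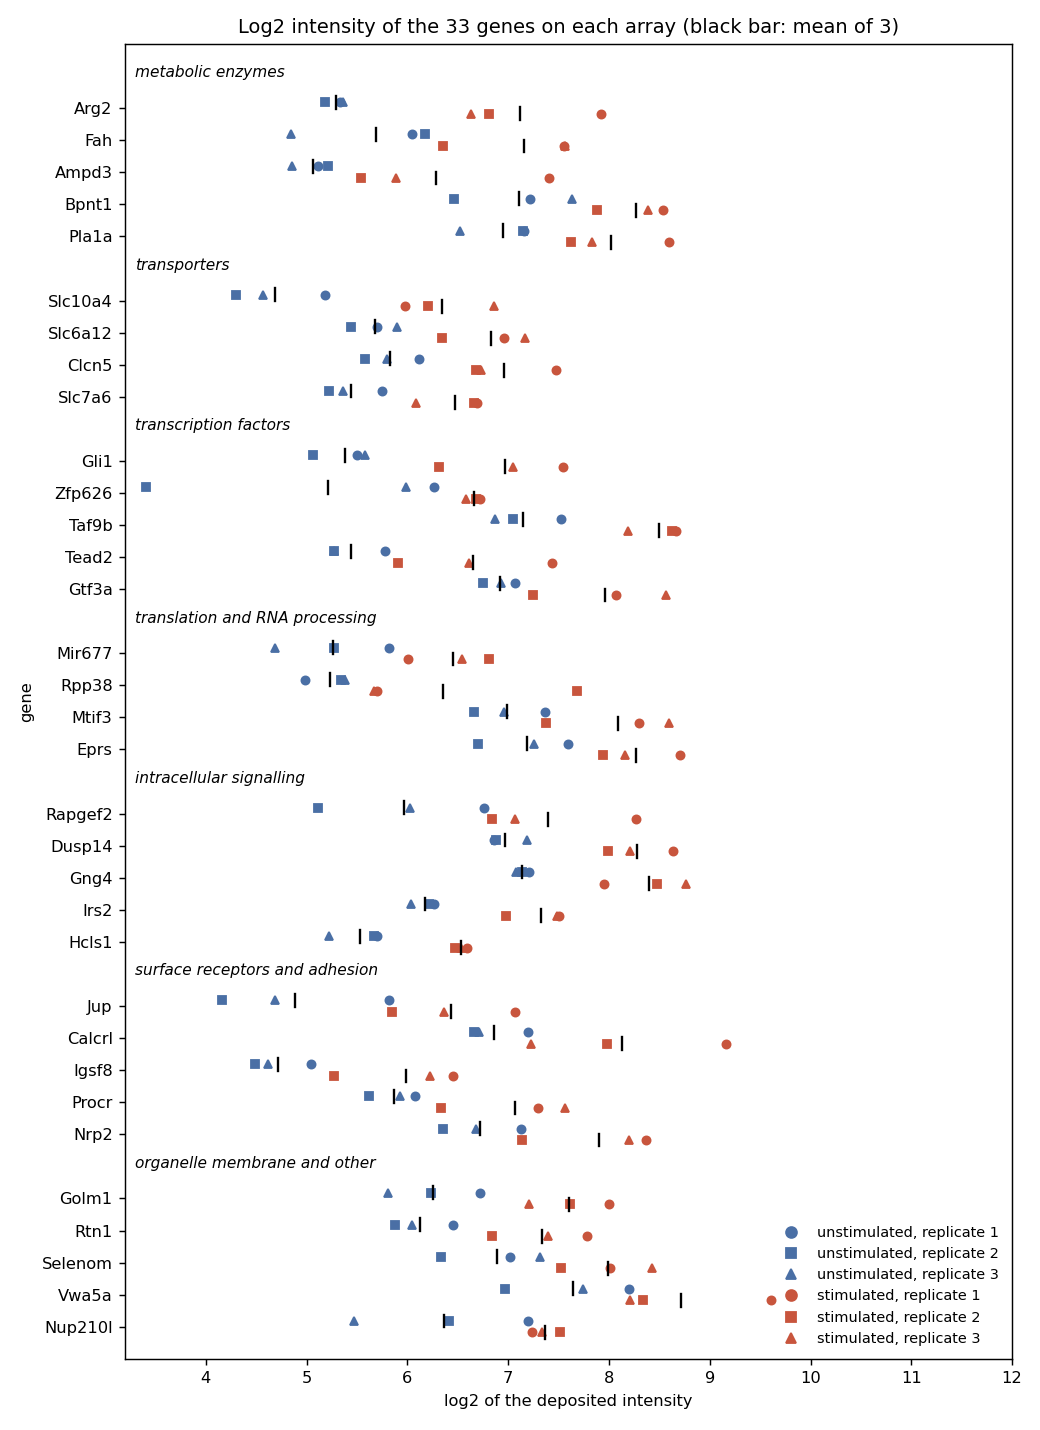
Log2 of the deposited intensity (x axis) of the 33 genes (y axis, grouped by role) on each of 6 arrays, blue for unstimulated and red for stimulated, with a marker shape per replicate number and a black bar at each mean of 3. The red points of a gene all lie right of its blue points, as the selection requires, by as much as 1.27 in Arg2 and by under 0.1 in 7 genes.

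Differences ran from 1.0 to 1.83 with a median of 1.19, a fold of 2.0 to 3.56 with a median of 2.29, while the median difference over all genes was 0.005. Just inside the threshold were Hcls1 and Nup210l (both 1.0), Slc7a6 (1.03), Gtf3a (1.05) and Pla1a (1.08). Just outside it were Il1rn (0.997), Atp6v0a1 (0.99), Mir155 and Psd3 (both 0.97) and Sec11c (0.96), so the edge separates genes that hardly differ in value. A further 22 genes differed by at least 1 but had overlapping groups, led by Sema7a at 1.42.

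The genes were of middling level before stimulation and brighter after it. Their unstimulated means ran from 4.68 to 7.64, and 19 lay above the median of all genes (5.71). Above the 90th percentile of all genes lay 0 without stimulation and 6 with it: Vwa5a, Taf9b, Gng4, Dusp14, Bpnt1 and Eprs. In the median gene the percentile was 56.5 without and 81.0 with stimulation, a shift that follows from the rule. By type of name, 0 of 657 predicted or clone-named genes and 0 of 469 named only by location or domain met the rule, and 1 of 301 zinc finger and TRIM genes did. The share over all genes was 0.430%, and nothing is read from counts this small.

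**Figure D2:**
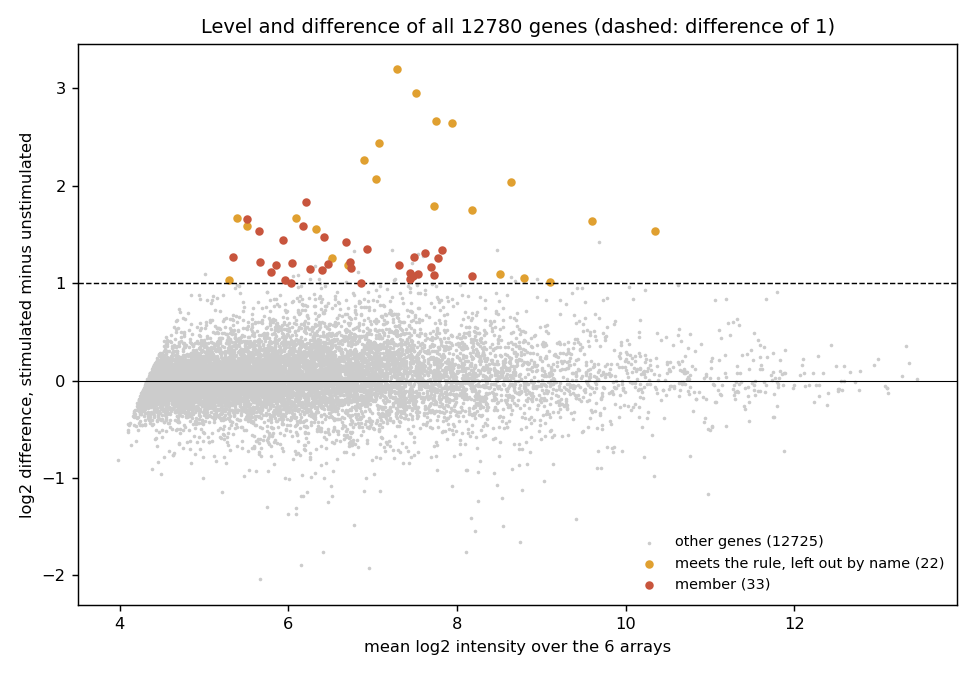
Mean log2 intensity over the 6 arrays (x axis) against the log2 difference between stimulated and unstimulated means (y axis) for 12780 genes, with the 33 members in red, the 22 genes set aside by name in yellow and all others in grey. Members lie between differences of 1.0 and 1.83, and the genes set aside reach higher, to 3.19 for Tnfsf9.

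Metabolic enzymes made up 5 of the 33. Arg2, the mitochondrial arginase that splits arginine into ornithine and urea, had the largest difference of the 33. Its unstimulated arrays, replicates 1 to 3, read 5.33, 5.18 and 5.36, and its stimulated arrays 7.92, 6.81 and 6.63. The unstimulated arrays agreed closely (5.29 ± 0.09, SD, n = 3) and the stimulated ones spread widely (7.12 ± 0.70, SD, n = 3), but the groups stood 1.27 apart. The difference was 1.83, or 3.56-fold. Of 4 measured genes of arginine and ornithine handling, 0 met the rule. They were Oat, which converts ornithine onward (0.33), Asl, which makes arginine (0.25), Odc1, the first enzyme of polyamine synthesis (0.13), and the arginine carrier gene Slc7a1 (-0.02). Over all genes 0.430% met the rule, so 0 in this set or in the small partner sets below says little.

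Fah encodes the last enzyme of tyrosine breakdown. Unstimulated replicates 1, 2 and 3 gave 6.04, 6.17 and 4.84 and stimulated ones 7.55, 6.36 and 7.56, a difference of 1.47. Stimulated replicate 2 was only 0.19 above the highest unstimulated array. Hgd, an earlier enzyme gene of that pathway, was dim and differed by -0.12. Ampd3, the AMP deaminase that turns AMP into IMP, was led by 1 array: stimulated replicate 1 gave 7.40, against 5.54 and 5.89 in the others and 4.86 to 5.21 without stimulation. Its difference of 1.22 was 0.66 without that array. Its relatives Ampd1 and Ampd2 differed by -0.03 and -0.05. Pla1a, a phospholipase that acts on phosphatidylserine, gave 7.16, 7.15 and 6.52 without and 8.60, 7.63 and 7.84 with stimulation, a difference of 1.08.

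The remaining enzyme gene, Bpnt1, came with its genomic neighbour. Bpnt1 encodes a phosphatase that clears the phosphoadenosine left by sulfation, and Eprs encodes the enzyme that charges the tRNAs of glutamate and proline. They are next to each other among the measured genes in the RefSeq order. Bpnt1 read 7.22, 6.46 and 7.63 on unstimulated arrays 1 to 3 and 8.54, 7.88 and 8.38 on stimulated arrays, a difference of 1.16. Eprs was at 7.59, 6.70 and 7.26 and at 8.70, 7.94 and 8.16, a difference of 1.08. In both genes the arrays numbered 2 were the lowest of their group. Mir194-1, the measured gene before the pair, differed by -0.19, and 9630028B13Rik, the one after it, by 0.06.

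Other genes of tRNA charging were compared with Eprs. Of 20 measured genes for tRNA synthetases and their scaffold proteins, 0 met the rule, with differences from -0.17 to 0.44 and a median of 0.16. Aimp1 and Aimp2, scaffold proteins of the complex that holds Eprs, differed by 0.03 and 0.35.

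A second pair of members overlaps in the annotation. Gtf3a encodes TFIIIA, the zinc finger protein that starts transcription of 5S ribosomal RNA, and Mtif3 encodes an initiation factor of mitochondrial translation. Gtf3a gave 7.07, 6.75 and 6.93 without and 8.07, 7.25 and 8.57 with stimulation (replicates 1, 2 and 3), a difference of 1.05. Mtif3 gave 7.37, 6.66 and 6.95 and 8.30, 7.37 and 8.60, a difference of 1.10. The profiles were alike, with stimulated replicate 2 lowest and replicate 3 highest. In Mtif3 that lowest stimulated array lay 0.0027 above the highest unstimulated one. How far their probe sets measure separate RNA was not tested. Rasl11a and Lnx2, the measured genes on either side, differed by 0.17 and 0.15. Related factors did not meet the rule either: 0 of 7 for TFIIIC and RNA polymerase III and 0 of 7 for mitochondrial translation, with medians of 0.03 and -0.02.

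Around the 33 genes as a whole, 62 other measured genes lay directly before or after a member. Of these 0 met the rule, against 0.430% of all genes, so the count says little. The differences of the 62 ran from -0.44 to 0.87 with a median of 0.03. The highest was Olfr920 beside Vwa5a (0.87), whose groups overlapped, then Itgav beside Calcrl (0.81), which encodes an integrin chain and whose groups were 0.16 apart, and Cd37, a tetraspanin gene beside Tead2 (0.73). Cd80, a CD28 ligand gene, lay beside Pla1a and differed by 0.60.

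**Figure D3:**
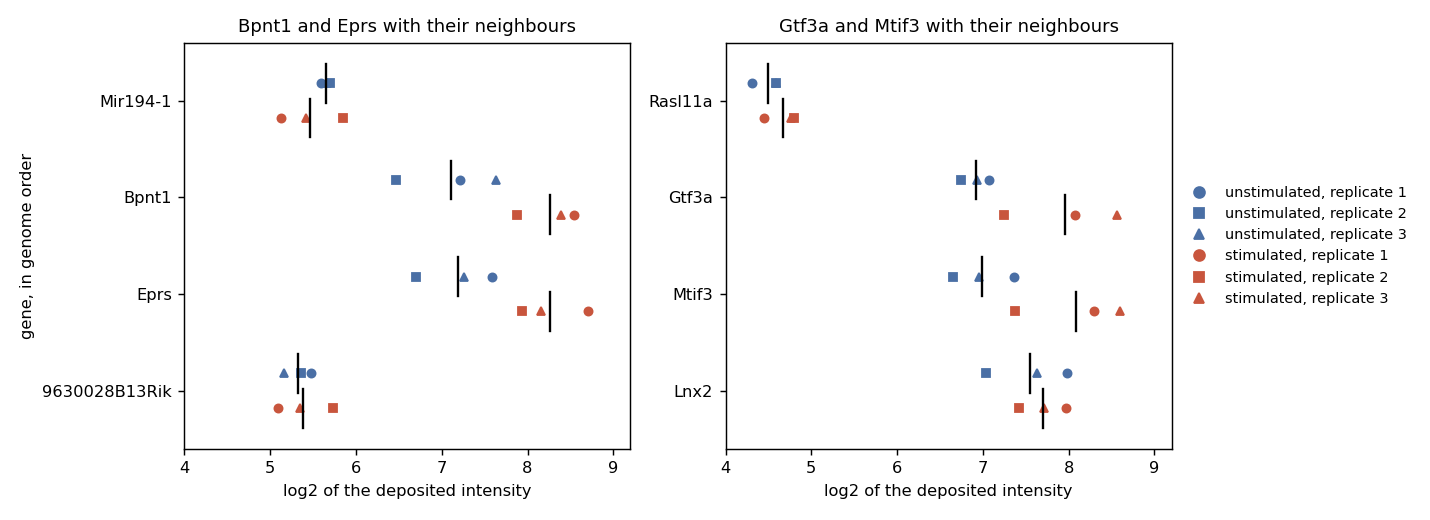
Log2 intensity (x axis) on each array of Bpnt1 and Eprs (left) and of Gtf3a and Mtif3 (right) with a measured gene on each side in genome order (y axis), blue for unstimulated, red for stimulated, black bars for means of 3. Both genes of each pair differ by 1.05 to 1.16, and the genes beside them by -0.19 to 0.17.

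Transcription factors numbered 5 with Gtf3a. Gli1, the zinc finger factor at the end of Hedgehog signalling, read 5.50, 5.06 and 5.58 without and 7.55, 6.32 and 7.04 with stimulation. The groups stood 0.73 apart and the difference was 1.59, or 3.01-fold. Gli1 is itself a standard target of the Hedgehog pathway, as is Ptch1, the receptor gene. Ptch1 averaged 4.88 and 5.08 and differed by 0.21 with overlapping groups. Hhip, another target, went the other way by -0.73 with groups apart. It gave 6.92, 6.22 and 6.19 without and 5.90, 5.73 and 5.52 with stimulation. Of 6 measured genes of the pathway, 0 met the rule, and Gli2, the related activator, was dim in both groups (4.47 and 4.44).

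Tead2, a DNA-binding partner of the Hippo coactivators YAP and TAZ, gave 5.78, 5.27 and 5.27 without and 7.43, 5.90 and 6.61 with stimulation, a difference of 1.21. Without stimulated replicate 1 it was 0.82. Of 6 measured genes of that pathway 0 met the rule. The related genes Tead1 and Tead3 were dim and differed by -0.09 and 0.04, and Wwtr1, which encodes TAZ, differed by -0.01. The others were Vgll4 (0.83, with overlapping groups), Lats2 (-0.48) and Lats1 (-0.13). Taf9b, a subunit of coactivator complexes of RNA polymerase II, was brighter and steadier. It gave 7.52, 7.05 and 6.87 without and 8.66, 8.63 and 8.19 with stimulation, with groups 0.67 apart and a difference of 1.34. Zfp626, a zinc finger gene, rested on 1 array. Unstimulated replicate 2 was at 3.41, below the other unstimulated arrays at 6.26 and 5.98, and the stimulated arrays were at 6.58 to 6.72. Its difference of 1.44 was 0.54 without that array.

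Signalling proteins also numbered 5. Dusp14, a phosphatase that acts on MAP kinases, gave 6.86, 6.88 and 7.18 without and 8.64, 7.99 and 8.21 with stimulation, a difference of 1.31 with groups 0.81 apart. Gng4, a gamma subunit of heterotrimeric G proteins, gave 7.21, 7.14 and 7.08 without and 7.95, 8.48 and 8.77 with stimulation. It was thus level across unstimulated cells (7.14 ± 0.07, SD, n = 3) and differed by 1.26. Its stimulated replicate 1 was the lowest of its group, as in 4 of the 33 genes. Of 8 other measured G protein beta and gamma genes, 0 met the rule. The nearest was Gngt2 at 0.62, and Gng12, another gamma subunit, differed by -0.56.

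Irs2, the adaptor that links the insulin and IGF-1 receptors and some cytokine receptors to PI3 kinase, was even across unstimulated arrays. The SD was 0.12 without and 0.30 with stimulation (n = 3 each). Unstimulated replicates 1, 2 and 3 gave 6.26, 6.21 and 6.04 and stimulated ones 7.51, 6.98 and 7.48, a difference of 1.15 with groups 0.71 apart. The insulin receptor gene Insr differed by 0.62 with overlapping groups, and of 9 measured genes of that pathway 0 met the rule (median 0.14). Hcls1, a cortactin-like protein of blood cells that binds actin, lay on the threshold with little spread. It gave 5.69, 5.67 and 5.23 without and 6.59, 6.47 and 6.53 with stimulation. Rapgef2, an exchange factor that activates the GTPase RAP1, gave 6.76, 5.12 and 6.03 and 8.27, 6.84 and 7.07, a difference of 1.42 in which the groups nearly touched. Its relative Rapgef6 differed by 1.2 with overlapping groups, and the RAP1 genes Rap1a and Rap1b by -0.31 and -0.10.

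Among 5 genes of surface receptors and adhesion, Calcrl is the receptor that answers to CGRP or adrenomedullin, depending on which RAMP protein it pairs with. It read 7.20, 6.66 and 6.71 without and 9.16, 7.99 and 7.23 with stimulation. The stimulated arrays spread over almost 2 log2 units, and the lowest was 0.03 above the highest unstimulated array. The difference of 1.27 was 0.75 without stimulated replicate 1. Of its partners, Ramp3 was bright and uneven in both groups (10.38 ± 1.48 and 10.85 ± 1.48, SD, n = 3 each) and Ramp1 was dim (4.69 and 4.82). Adm, which encodes adrenomedullin, differed by 0.59 with overlapping groups.

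Nrp2, a coreceptor of semaphorins and of VEGF-C, gave 7.13, 6.35 and 6.68 without and 8.37, 7.14 and 8.20 with stimulation. Its difference was 1.18 and its groups were only 0.01 apart. Of 6 measured partners, Plxna1, a plexin that signals with neuropilins, differed by 0.60 with overlapping groups. Flt4, the VEGF-C receptor gene, went the other way by -1.18, from 7.94, 6.08 and 6.26 without to 5.53, 5.60 and 5.61 with stimulation. Procr, the endothelial receptor of protein C, gave 6.08, 5.61 and 5.92 without and 7.30, 6.34 and 7.56 with stimulation, a difference of 1.19. Igsf8, an immunoglobulin protein that binds the tetraspanins CD9 and CD81, was dim at 5.04, 4.49 and 4.61 without and 6.45, 5.27 and 6.23 with stimulation, a difference of 1.27. Cd81 and the related Cd82 differed by 2.04 and 2.95, and both are among the genes set aside by name. Cd9 differed by -0.52. Jup, the junction protein plakoglobin, gave 5.82, 4.16 and 4.68 without and 7.07, 5.85 and 6.36 with stimulation, a difference of 1.54 with groups 0.03 apart. Its relative Ctnnb1, the beta-catenin gene, differed by 0.25.

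Calcrl, Nrp2 and Procr are known from vessel wall, and Jup from epithelium, so markers of those cells are given beside them. Of 10 markers of fibroblasts and endothelium 5 were measured, 1 had a positive and 4 a negative difference, and their summed intensity was 235 to 315 on unstimulated and 209 to 296 on stimulated arrays. Pecam1, the only endothelial marker among those measured, was at 4.33 and 4.0, so the sum says little about endothelium. Of 7 keratinocyte markers 6 were measured and all 6 had negative differences, with sums of 157 to 194 and 157 to 169. Desmoplakin, encoded by Dsp and joined to plakoglobin in epithelium, was at 4.44 and 4.33. The summed levels of both marker lists overlapped between the groups. Epcam, which encodes the epithelial and Langerhans cell protein CD326 that the sort selected against, was dim but had groups apart. It read 4.71, 4.6 and 4.90 without and 5.36, 5.51 and 5.06 with stimulation, a difference of 0.57. Sirpa, which the sort also selected against, was dim at 4.67 and 4.83, with groups 0.05 apart. It is a marker of type 2 conventional dendritic cells (cDC2). Of 8 cDC2 markers 3 were measured, and all 3 had positive differences, with a median of 0.15. Of 14 T cell markers 7 were measured and 6 had positive differences, with sums of 194 to 285 and 207 to 353. Cd3d and Cd3g, chains of the T cell receptor complex, differed by 0.64 and 0.62 with overlapping groups. The part of such cells in the members' differences was not tested.

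Transporters numbered 4. Slc10a4, an orphan member of the bile acid carrier family found on vesicles, had the second largest difference. It gave 5.18, 4.30 and 4.56 without and 5.97, 6.21 and 6.86 with stimulation, a difference of 1.66 with groups 0.79 apart. It started near the dim end, at the 15.2 percentile of all genes. Slc6a12, a carrier of betaine and GABA, gave 5.70, 5.44 and 5.89 and 6.96, 6.34 and 7.17, a difference of 1.15. Clcn5, an endosomal exchanger of chloride for protons, gave 6.11, 5.58 and 5.80 and 7.47, 6.68 and 6.73, a difference of 1.13. Slc7a6, a light chain of the carriers of cationic and large neutral amino acids, gave 5.75, 5.22 and 5.36 and 6.69, 6.66 and 6.08, a difference of 1.03. The heavy chain it needs, Slc3a2, averaged 9.85 and 10.22, a difference of 0.37.

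Among the genes of organelle membranes and other roles, Golm1 encodes a Golgi membrane protein. It gave 6.72, 6.23 and 5.81 without and 8.0, 7.61 and 7.21 with stimulation, so that replicates 1, 2 and 3 had the same order in both groups and the difference was 1.35. Rtn1, a reticulon of the endoplasmic reticulum, gave 6.45, 5.87 and 6.04 and 7.78, 6.84 and 7.39, a difference of 1.21. Selenom, a selenoprotein of the same organelle, gave 7.01, 6.33 and 7.31 and 8.01, 7.53 and 8.43, a difference of 1.10. Vwa5a, a protein with a von Willebrand type A domain, was the brightest member and barely separated. It read 8.20, 6.97 and 7.74 without and 9.61, 8.34 and 8.20 with stimulation, and the difference of 1.08 was 0.63 without stimulated replicate 1.

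Rpp38, a protein subunit of the RNase P and MRP complexes, was at 7.69 in stimulated replicate 2, while the other stimulated arrays, at 5.69 and 5.67, were close to the unstimulated ones at 4.99 to 5.38. Its difference of 1.12 was 0.45 without that array, and of 7 measured genes of those complexes 0 met the rule (median 0.04). Nup210l, a relative of a nuclear pore membrane protein, was the 1 member with several probe sets. Of its 9, only the one used met the rule: 6 had positive and 3 negative differences, from -0.59 to 1.0 with a median of 0.34. The probe set used was low on unstimulated replicate 3 (5.47), against 7.19 and 6.42 in the others and 7.24 to 7.51 with stimulation. For the remaining 32 genes no other named probe set was there to compare.

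**Figure D4:**
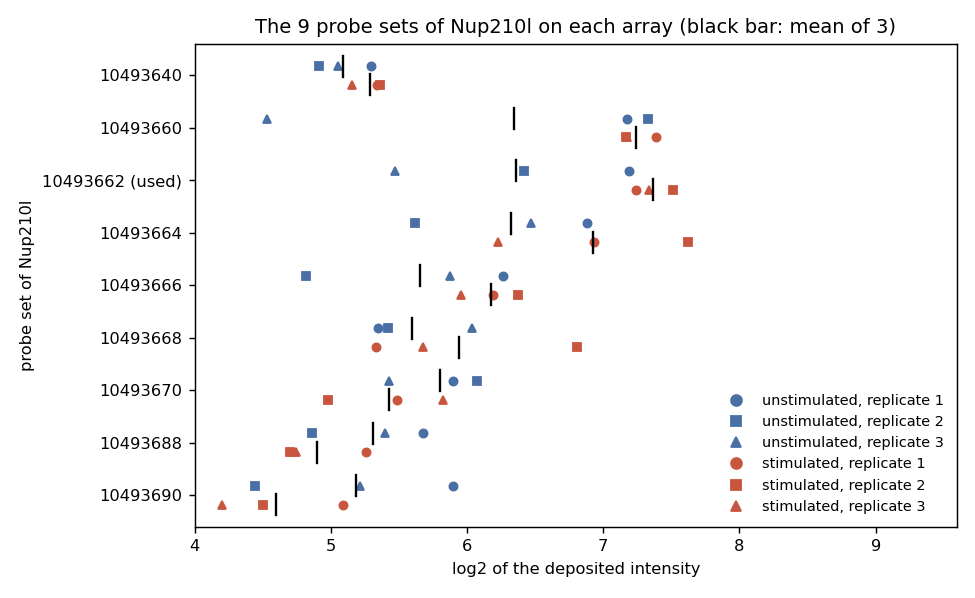
Log2 intensity (x axis) on each array of the 9 probe sets of Nup210l (y axis), blue for unstimulated, red for stimulated, black bars for means of 3. The groups are apart in only 1 probe set, and differences run from -0.59 to 1.0.

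Arrays numbered 1 tended to be highest among the members and those numbered 2 lowest, in both groups. Stimulated replicate 1 was the highest of its group in 22 of 33 genes, where it was highest in 36.2% of all genes, and unstimulated replicate 1 in 24 of 33, against 41.9%. Stimulated replicate 2 was lowest in 21 and unstimulated replicate 2 in 20, counts for which the share over all genes was not computed. The interquartile range of log2 values, a measure of an array's contrast, was also widest in the arrays numbered 1 (2.19 and 2.31) and narrowest in those numbered 2 (1.74 and 1.75). Quantile normalisation once more, which gives all arrays the same spread, left 30 of the 33 meeting the rule. The median difference of the members was then 1.14. The part of contrast in single differences was not tested.

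Leaving out 1 array at a time shows how far each difference stays at 1 or above. Groups already apart stay apart in any omission, so only the difference can fail the rule. In all 6 omissions 11 genes met the rule: Arg2, Slc10a4, Gli1, Jup, Fah, Golm1, Taf9b, Dusp14, Igsf8, Gng4 and Irs2. The other 22 genes failed it at least once, some because they start close to 1, as Hcls1 (1.0) and Slc7a6 (1.03) do. Meeting it in all 6 omissions does not mean well separated groups: those of Jup were 0.03 apart. Without stimulated replicate 1, 14 of the 33 no longer met the rule, and without unstimulated replicate 2, 9 did not. In the remaining omissions 1 to 5 members were lost. The lowest difference in these omissions was 0.45, for Rpp38, and none could fall below 0, because the rule kept only genes whose groups do not overlap. Leaving out unstimulated replicate 1 or stimulated replicate 2 let 180 and 161 genes meet the rule in place of 55.

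**Figure D5:**
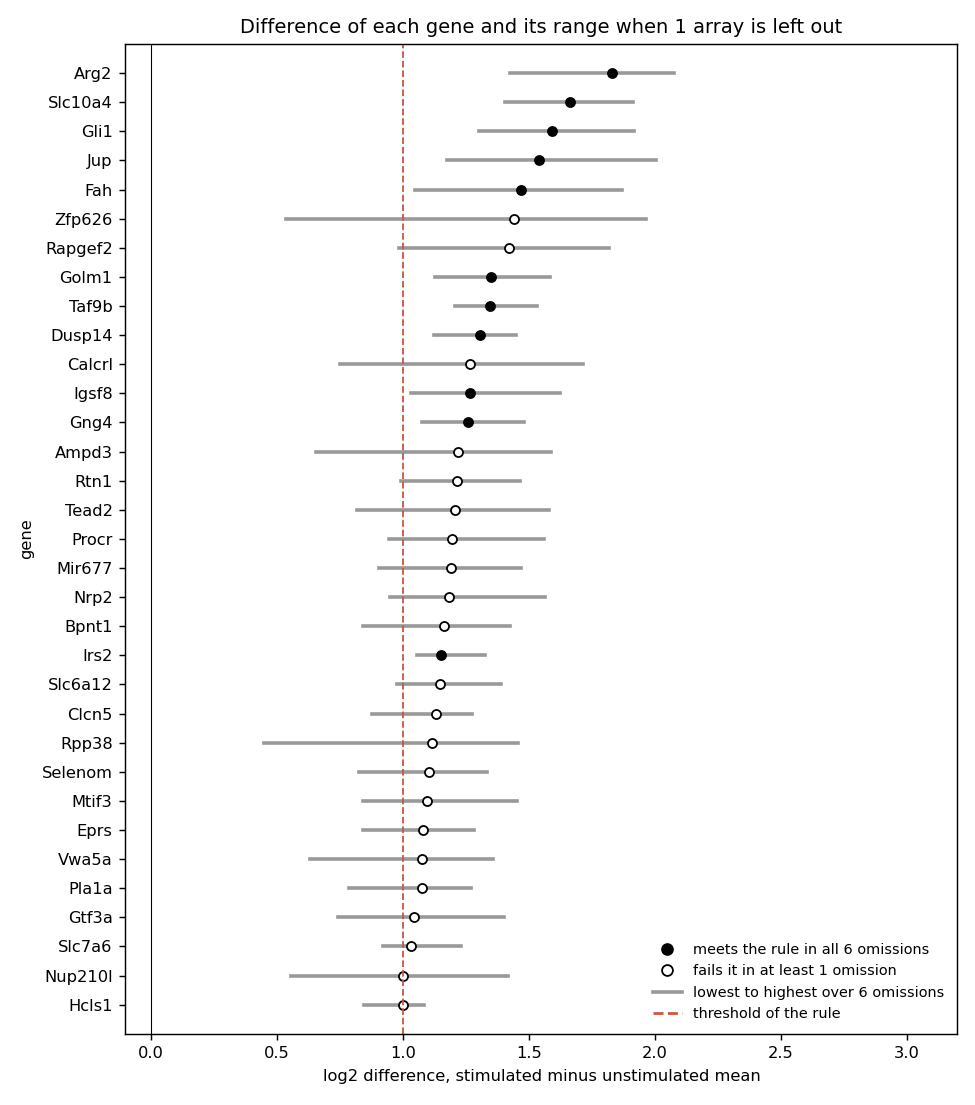
Log2 difference of the 33 genes (x axis) with all 6 arrays (points) and the range over 6 omissions of 1 array (grey lines), the dashed line marking the threshold of 1. Filled points mark the 11 genes that met the rule in all omissions, and the widest ranges are those of Zfp626, Rpp38, Calcrl and Ampd3.

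Genes that CD40 and NF-kB are known to drive give the setting for these members. Of 59 such genes listed, 51 were measured, 36 had positive and 15 negative differences, and the median was 0.40, against 0.005 for all genes. The rule was met by 10, all of them among the 22 genes set aside, and this list was written with earlier results of these data known. Tnfsf9 (3.19), Cd70 (2.66) and Ptgs2 (2.65) had the largest differences, and Cxcl10 (-0.73), Il1b (-0.67) and Tnfrsf9 (-0.47) the smallest. Feedback inhibitors of NF-kB that serve as its standard targets differed by unlike amounts, all with overlapping groups. Nfkbia and Tnfaip3 differed by 0.84 and 0.69, Nfkbie by 0.48, Zc3h12a by 0.40 and Tnip1 by 0.03. Birc3 and Traf1, also on the list, differed by -0.02 and -0.09.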

How the data were processed

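Biotinylated cDNA from 6 sorted samples was hybridised to 1 Affymetrix array each. The authors' tools, per the submitters' processing notes, were Affymetrix Expression Console and RMA. RMA corrects background, normalises arrays by quantiles and summarises probe sets. The deposited arrays still differed in interquartile range, from 1.74 to 2.31. Versions, settings and the genome build are not stated there. The authors deposited intensities on a linear scale (6.97 to 13701) for 17551 probe sets. From these, log2 was taken. The platform annotation gave 1 symbol for 13963 probe sets, and each of 12780 genes was represented by its probe set of highest mean. The rule for members was applied to these values, and the groups were compared over all genes with limma 3.58.1 in R 4.3.3 (Benjamini-Hochberg, two-sided), tested on simulated data. All 33 members matched RefSeq by gene identifier (GRCm38.p6), which was used for gene order and sequences.

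The members, gene lists, partner genes and motifs were chosen with earlier results of these data known. All members are named. Of the CD40 and NF-kB genes, the 3 largest and 3 smallest differences are named by rule. A few more of them and other genes were picked as known targets, partners or neighbours. Alternatives were another normalisation, probe set rule, filter, pseudocount, fold, variance model, weights per array, a block for the replicate number, and omission of arrays. Replicate numbers were not treated as pairs, since the labels do not state a pairing. The deviations of same-numbered arrays correlated across genes at 0.73, 0.59 and 0.06 (replicates 1, 2 and 3). Arrays numbered 1 and arrays numbered 2 were thus alike across the groups. The fit with a block for the replicate number is given with the other settings below.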

Additional observations from a re-analysis of the deposited data

Results flagged for a closer look

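Probe sets with several gene symbols or none stood outside the comparison. Of these 3588, 4 met the same rule (0.111%). Both probe sets shared by Tgtp1 and Tgtp2, interferon-induced GTPases, were among the 4, and the other two have no symbol in the annotation. They are reported as values only.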

How the results depend on the processing

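The number of genes that met the rule was 40 to 55 under the other normalisations, probe set rules, filter and pseudocount, of which 21 to 33 were members; the pseudocount of 16, which compresses dim genes, lost 12 members. It was 54 to 180 without 1 array, 117, 108 and 69 without both arrays numbered 1, 2 or 3 (chosen after seeing the data), 162 at 1.5-fold and 77 with no rule on overlap. The median difference of the members ran from 1.01 to 1.39. Of 396 recomputed differences of single members, 2 moved by more than the spread between replicates: Nup210l as the mean of its probe sets (0.24) and Hcls1 with the pseudocount (0.80). That count is no measure of stability. With 3 arrays a group, leaving out 1 array cannot move a difference by more than that spread. The filter changes no value, and the probe set rules cannot change the 32 members with 1 probe set. Counts of CD40 and NF-kB genes ran from 8 to 13.

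By limma, 2 genes were higher, 3 with quantile normalisation once more, 1 with the pseudocount and 28 with array weights. The count was 0 without any 1 array or without both arrays of a number, where fewer samples were fitted. Members past the threshold were 0 in those fits, but 9 with array weights. With the replicate number as a block, 30 genes and 10 members were higher, a pairing that the labels do not state. Gli1, Rtn1 and Taf9b were the 3 members called both with weights and with the block. With 3 arrays a group, precision is limited, and signal over background could not be measured from the deposited values.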
